A study of Mus musculus with 4 samples.

Results

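Genes of the nucleolus and of ribosome assembly were examined in mouse embryonic fibroblasts that make p63 or GFP, with and without etoposide. The set is a list of 35 nucleolar genes known to be driven by MYC. It was chosen by name, but with earlier results of these data known. Shares of members set beside those of all genes are therefore descriptions only. A member entered where a probe set of the array was annotated with its symbol and no other, and where several did, the brightest by its mean over all 4 arrays was used. This gave 33 of the 35 genes, among 19938 named genes in all. The probe set of Ppan was annotated with several symbols, none was listed under the symbol Noc2l, and neither gene was analysed here. All 33 measured members passed the brightness filter, an RMA signal of 5.87 (log2) on at least 1 array, as did 10698 of all named genes. The lowest reading of any member on any array was 7.17, so no member value rests on signal below the filter.

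Each of the 4 groups was a single array. The groups were cells with a p63 retrovirus treated with etoposide, cells with a p63 retrovirus after mock treatment, cells with a GFP retrovirus treated with etoposide, and cells with a GFP retrovirus after mock treatment, all harvested at 6 h. All groups shared the C57BL/6 background, the loss of both BAX and BAK, transformation with SV40 and derivation from embryos at embryonic day 13.5. BAX and BAK are the proteins that permeabilise the outer mitochondrial membrane in apoptosis, the large T antigen of SV40 inactivates p53 and the retinoblastoma protein, and etoposide traps topoisomerase II on cleaved DNA. The etoposide dose is 10 µg/mL in the treatment protocol, while other labels give the same number per microlitre. The labels do not say whether the lines are clones or pools, which isoform or species of p63 was used, or how many cultures were pooled.

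Ribosomes are built in the nucleolus. RNA polymerase I transcribes the long precursor of the ribosomal RNAs there, small nucleolar ribonucleoproteins (snoRNPs) guide its methylation and pseudouridylation, and separate sets of assembly factors fold, cleave and export the small and the large subunit. MYC is known to raise the genes of all these steps, often through the E-box CACGTG, and growing fibroblasts express them strongly. Damage to the nucleolus is also known to stabilise p53 through free ribosomal proteins that bind MDM2.

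Trp63, the check of the labels, read 9.29 and 8.75 on the arrays of etoposide- and mock-treated p63 cells, against 5.59 and 4.87 in etoposide- and mock-treated GFP cells. Of 10 fibroblast markers, 6 reached the filter on all arrays, while Thy1, Pdgfra, Lum and Dcn stayed below it on every array. Among markers of other cells, 1 of 6 for simple epithelium (Krt8), 2 of 5 for haematopoietic cells (Cd68 and Cd14) and 0 of 4 for endothelium reached the filter on any array. The summed log2 signal ran, over the 4 arrays, from 81.2 to 84.5 for fibroblast, 30.6 to 32.9 for simple epithelium and 18.2 to 19.1 for endothelial markers. That of haematopoietic markers was 26.2 and 22.6 in etoposide- and mock-treated p63 cells, against 26.9 and 24.1 in etoposide- and mock-treated GFP cells. In the same order of arrays, Cd68 read 6.87, 5.20, 6.78 and 6.05, and Cd14 read 6.82, 4.79, 7.28 and 5.58. Ptprc, Adgre1 and Csf1r stayed below the filter on every array. The part of these markers in the results below was not tested. Mock-treated p63 cells gave the array with the smallest spread over all probe sets, an SD of 2.28, against 2.37 to 2.39 on the other arrays. Its median over the genes kept was also the lowest, at 7.48 against 7.60 to 7.69. Over all probe sets its median was instead the highest, at 5.59 against 5.46 to 5.52. The part of this in the differences below was not tested. In RNA of whole cultures, fewer cells of a type and less RNA per cell cannot be told apart.

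Promoter windows from RefSeq (GRCm38.p6), which run from 250 bases before to 50 bases after the start of a gene, were available for 31 of the 35 listed genes. The letters CACGTG, which read the same on both strands, stood in the windows of 8 of these 31 genes (25.8%), against 2187 of 27025 genes with a window (8.09%) 1042 of 8613 genes kept on the arrays (12.1%) and 15 of 82 other ribosome biogenesis factors kept (18.3%). In all 8 member windows the motif lay after the start of the gene, with its first base 3 to 41 bases downstream, counting the first transcribed base as 1. Of all 2349 windows that hold the motif, 310 (13.2%) have their first copy after the start, as do 8 of the 18 such windows of other ribosome biogenesis factors (44.4%). Since the members were listed as genes driven by MYC, their share with the motif is not independent of that choice. A match describes letters only and is no evidence of binding. The 8 stretches of 30 bases that hold it are shown because MYC is known to bind this sequence, with the motif in capitals, 5′ to 3′ on the strand of the gene:

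Ccdc86: ctacagaggctaCACGTGagccatggatac

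Ltv1: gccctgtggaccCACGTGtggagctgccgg

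Mybbp1a: aagtgactgtcttctgagccCACGTGtttg

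Nle1: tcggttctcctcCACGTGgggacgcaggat

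Pes1: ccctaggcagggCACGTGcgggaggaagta

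Tsr1: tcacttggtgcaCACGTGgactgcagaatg

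Utp20: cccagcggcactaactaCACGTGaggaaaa

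Wdr43: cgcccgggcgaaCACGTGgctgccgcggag

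On the plus strand of GRCm38.p6 these stretches lie at chr11:72441347-72441376 (Mybbp1a), chr11:3963965-3963994 (Pes1), chr11:74898092-74898121 (Tsr1) and chr17:71616220-71616249 (Wdr43). On the minus strand they lie at chr19:10949226-10949255 (Ccdc86), chr10:13193092-13193121 (Ltv1), chr11:82908355-82908384 (Nle1) and chr10:88826765-88826794 (Utp20). The whole windows of the 2 members with the lowest p63 difference in mock-treated cells, Ccdc86 and Noc4l, are given next, the first with the motif and the second without it. They are at chr19:10949217-10949516 and chr5:110653333-110653632, both on the minus strand, with a G and C content of 55.7% and 71.7%, against a median of 61.3% for the windows of genes kept on the arrays.

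Ccdc86: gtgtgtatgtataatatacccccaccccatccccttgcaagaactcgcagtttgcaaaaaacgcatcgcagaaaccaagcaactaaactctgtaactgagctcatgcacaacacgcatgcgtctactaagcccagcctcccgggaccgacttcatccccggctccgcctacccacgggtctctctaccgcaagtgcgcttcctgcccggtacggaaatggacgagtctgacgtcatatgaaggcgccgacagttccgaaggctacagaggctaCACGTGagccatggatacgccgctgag

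Noc4l: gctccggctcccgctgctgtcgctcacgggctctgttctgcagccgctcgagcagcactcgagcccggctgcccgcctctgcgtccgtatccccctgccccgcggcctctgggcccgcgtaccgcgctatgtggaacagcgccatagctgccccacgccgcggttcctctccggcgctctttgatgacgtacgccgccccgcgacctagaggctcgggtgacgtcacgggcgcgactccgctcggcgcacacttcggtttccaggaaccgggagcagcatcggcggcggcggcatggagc

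The comparison of p63 with GFP in mock-treated cells sets 1 array of each line side by side. Effects of p63 cannot be told apart in it from other differences of line, culture or array. Nearly the whole set read lower with p63: 32 of 33 members lay below 0, against 63.9% of all genes kept. The members' median difference was -0.79 (log2), with quartiles of -0.97 and -0.41. With 1 array in each group there is no error or test for any value here. A gene counts as higher or lower once its log2 difference is at least 1 in size, a 2-fold change. By that rule 6 members were lower (18.2%) and 0 higher, where 3.76% of all 10698 genes kept were lower and 2.42% higher. The 6 were Ccdc86, Noc4l, Polr1a, Nolc1, Mybbp1a and Heatr1. All genes kept had a median of -0.14 in this comparison, so the members lay 0.65 below the bulk of the array, and 23 of the 33 fell under its lower quartile of -0.44. The members were also brighter, with a median signal of 9.56 against 7.59 for all genes kept. The median of all genes was 0.03 with no filter and -0.20 with a filter at the 75th percentile. The part of signal level in this gap was not tested. The call depends on scaling. Centring here sets each array on its median over the genes kept, not over all probe sets. With arrays so centred, with cyclic loess or with quantile normalization, 2 members, Ccdc86 and Noc4l, stayed below -1. The set's median was then -0.58, -0.59 and -0.63. The share of all genes lower was then 1.89%, 2.56% and 2.77%, against 6.06% of members. Centring also turned the split of all genes, from 259 higher and 402 lower to 408 higher and 202 lower, while the members' median kept its sign under every alternative run.

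**Figure D1:**
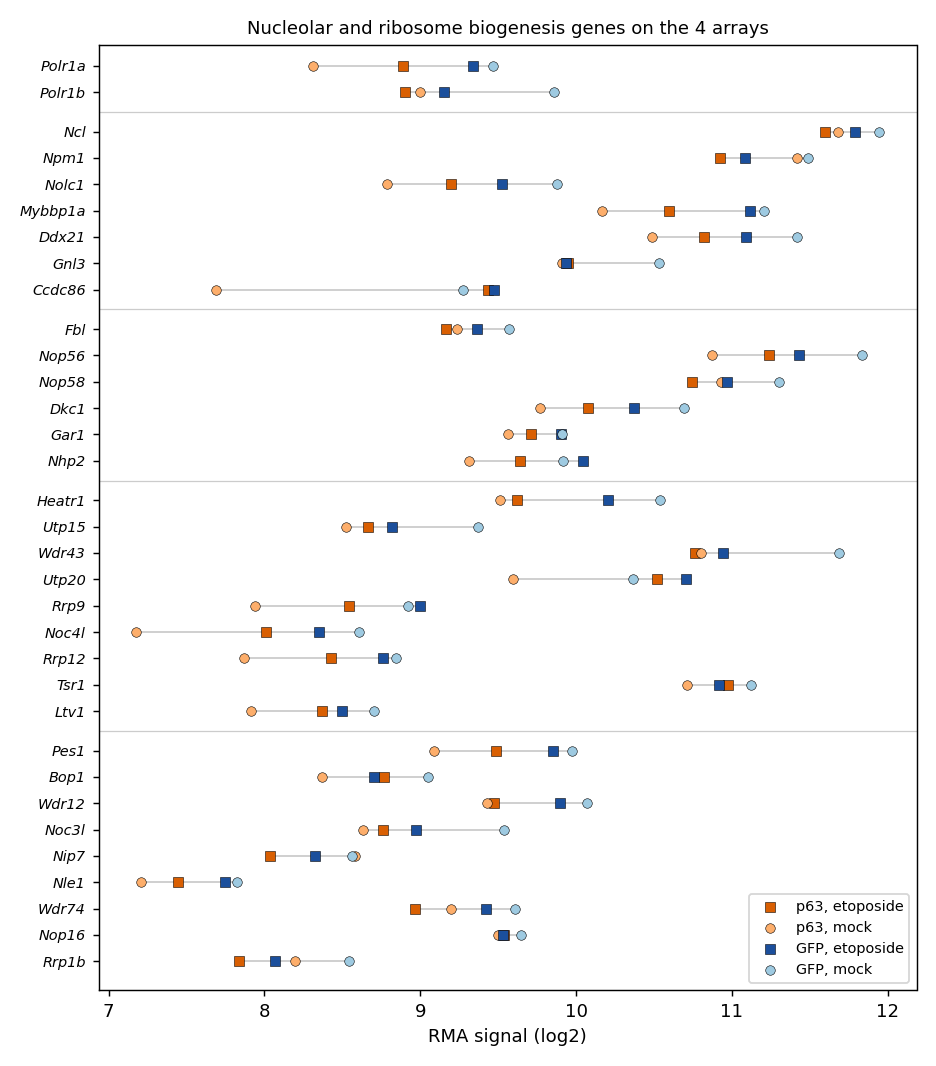
RMA signal (log2, x axis) of the 33 members (rows, grouped from top to bottom as RNA polymerase I subunits, nucleolar organisation, snoRNP proteins, small subunit assembly and large subunit assembly) in etoposide-treated p63 cells, mock-treated p63 cells, etoposide-treated GFP cells and mock-treated GFP cells, 1 array each; the grey line spans the 4 readings. Mock-treated p63 cells gave the lowest reading for 24 members and mock-treated GFP cells the highest for 28.

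Mock-treated p63 cells gave the lowest of the 4 readings for 24 of 33 members (72.7%), against 40.4% of all genes kept. Etoposide-treated p63 cells gave the lowest for the other 9, Polr1b, Ncl, Npm1, Fbl, Nop58, Wdr43, Nip7, Wdr74 and Rrp1b. Mock-treated GFP cells gave the highest reading for 28 members (84.8%), against 38.4% of all genes kept. With centring these counts were 17 lowest in mock-treated p63 cells (51.5%) and 22 highest in mock-treated GFP cells (66.7%). The shares of all genes were then 24.2% and 24.9%. As deposited, the exceptions to the second were Ccdc86, Nhp2, Utp20 and Rrp9, highest in etoposide-treated GFP cells, and Nip7, highest in mock-treated p63 cells by 0.02.

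Both RNA polymerase I subunits of the list read lower with p63. Polr1a, the largest catalytic subunit, read 8.89 and 8.31 in etoposide- and mock-treated p63 cells, against 9.34 and 9.47 in etoposide- and mock-treated GFP cells. Its p63 difference was -1.16 in mock-treated cells, 2.23-fold lower, and -0.45 after etoposide. Polr1b, the other large subunit, read 8.90 and 9.0 in etoposide- and mock-treated p63 cells, against 9.15 and 9.86 in etoposide- and mock-treated GFP cells. The p63 arrays were thus below both GFP arrays for both subunits, and the reading of mock-treated GFP cells stood apart from the other 3 for Polr1b.

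Among the 7 genes of nucleolar organisation the members varied most, with p63 differences in mock-treated cells from -1.59 to -0.07. Ccdc86, a coiled-coil protein of the nucleolus, had the lowest difference of all members and read 9.43 and 7.69 in etoposide- and mock-treated p63 cells, against 9.47 and 9.28 in etoposide- and mock-treated GFP cells. One array was low and the other 3 lay within 0.20 of one another, so the p63 difference was -1.59 in mock-treated cells, 3.0-fold lower, and -0.04 after etoposide. Nolc1, a chaperone of snoRNPs, read 9.2 and 8.79 in etoposide- and mock-treated p63 cells, against 9.53 and 9.88 in etoposide- and mock-treated GFP cells. Mybbp1a, a nucleolar protein that binds MYB, read 10.60 and 10.17 in etoposide- and mock-treated p63 cells, against 11.12 and 11.20 in etoposide- and mock-treated GFP cells. For both, each p63 array was below each GFP array. Their p63 differences in mock-treated cells were -1.09 and -1.04, that of Ddx21, an RNA helicase that couples polymerase I to rRNA processing, was -0.93, and that of Gnl3 (nucleostemin), a nucleolar GTPase, was -0.62. The most studied nucleolar proteins moved little. Ncl (nucleolin) read 11.60 and 11.68 in etoposide- and mock-treated p63 cells, against 11.79 and 11.95 in etoposide- and mock-treated GFP cells, a p63 difference of -0.27 in mock-treated cells. Npm1 (nucleophosmin), a nucleolar chaperone, read 10.92 and 11.42 in etoposide- and mock-treated p63 cells, against 11.09 and 11.49 in etoposide- and mock-treated GFP cells. Its p63 difference of -0.07 in mock-treated cells turned positive under the 3 other scalings, and since mouse Npm1 has many retrocopies, its probes may not be specific to it.

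The 6 snoRNP proteins had p63 differences in mock-treated cells from -0.97 to -0.33, with none called. Of the box C/D proteins, Nop56 read 11.24 and 10.87 in etoposide- and mock-treated p63 cells, against 11.43 and 11.84 in etoposide- and mock-treated GFP cells, a difference of -0.97 in mock-treated cells. Its partner Nop58 differed by -0.38 and the ribose methyltransferase Fbl (fibrillarin) by -0.33. Another probe set of Fbl gave -0.39. Of the box H/ACA proteins, Dkc1 (dyskerin), the pseudouridine synthase, read 10.07 and 9.77 in etoposide- and mock-treated p63 cells, against 10.37 and 10.70 in etoposide- and mock-treated GFP cells, a difference of -0.93. The partners Nhp2 and Gar1 differed by -0.61 and -0.35.

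Factors of the small subunit had a median of -0.89 over 9 genes, and all 9 lay below 0. The 7 genes of nucleolar organisation had a similar one, -0.93. Noc4l, whose yeast counterpart acts in export of the small subunit, read 8.01 and 7.17 in etoposide- and mock-treated p63 cells, against 8.35 and 8.61 in etoposide- and mock-treated GFP cells. That is a p63 difference of -1.43 in mock-treated cells, 2.70-fold lower, and -0.34 after etoposide. Heatr1, which in yeast belongs to the early complex that links transcription of the precursor to its processing, read 9.62 and 9.51 in etoposide- and mock-treated p63 cells, against 10.21 and 10.54 in etoposide- and mock-treated GFP cells. Heatr1 was the member with the largest p63 difference after etoposide, -0.58, beside -1.02 in mock-treated cells. Its partners in that complex, Wdr43 and Utp15, differed by -0.89 and -0.85 in mock-treated cells. Rrp9, a protein of the snoRNP that directs cleavage of the precursor, differed by -0.99, and Rrp12, an export factor in yeast, by -0.98. Utp20, a large scaffold protein of the small subunit processome, read 10.52 and 9.59 in etoposide- and mock-treated p63 cells, against 10.71 and 10.36 in etoposide- and mock-treated GFP cells, a difference of -0.77 in mock-treated cells. The late factors Ltv1 and Tsr1 differed by -0.79 and -0.41.

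Factors of the large subunit had a median of -0.62 over 9 genes, with none called and 8 below 0. Pes1, Bop1 and Wdr12, which form 1 complex needed for processing of the large subunit rRNA, differed by -0.89, -0.68 and -0.65 in mock-treated cells, and a second probe set of Wdr12 gave the same value, -0.65. Pes1 read 9.48 and 9.09 in etoposide- and mock-treated p63 cells, against 9.86 and 9.98 in etoposide- and mock-treated GFP cells, with both p63 readings below both GFP readings. Noc3l, an assembly factor of the large subunit in yeast, differed by -0.90, and Nle1, a remodelling factor, by -0.62. The remaining 4 stood nearer to the bulk of the array. Wdr74 differed by -0.41 and Rrp1b by -0.34, and Nop16, at -0.15, turned positive under the 3 other scalings. Nip7, a factor of large subunit maturation, read 8.04 and 8.58 in etoposide- and mock-treated p63 cells, against 8.33 and 8.56 in etoposide- and mock-treated GFP cells, and at 0.02 was the 1 member above 0.

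**Figure D2:**
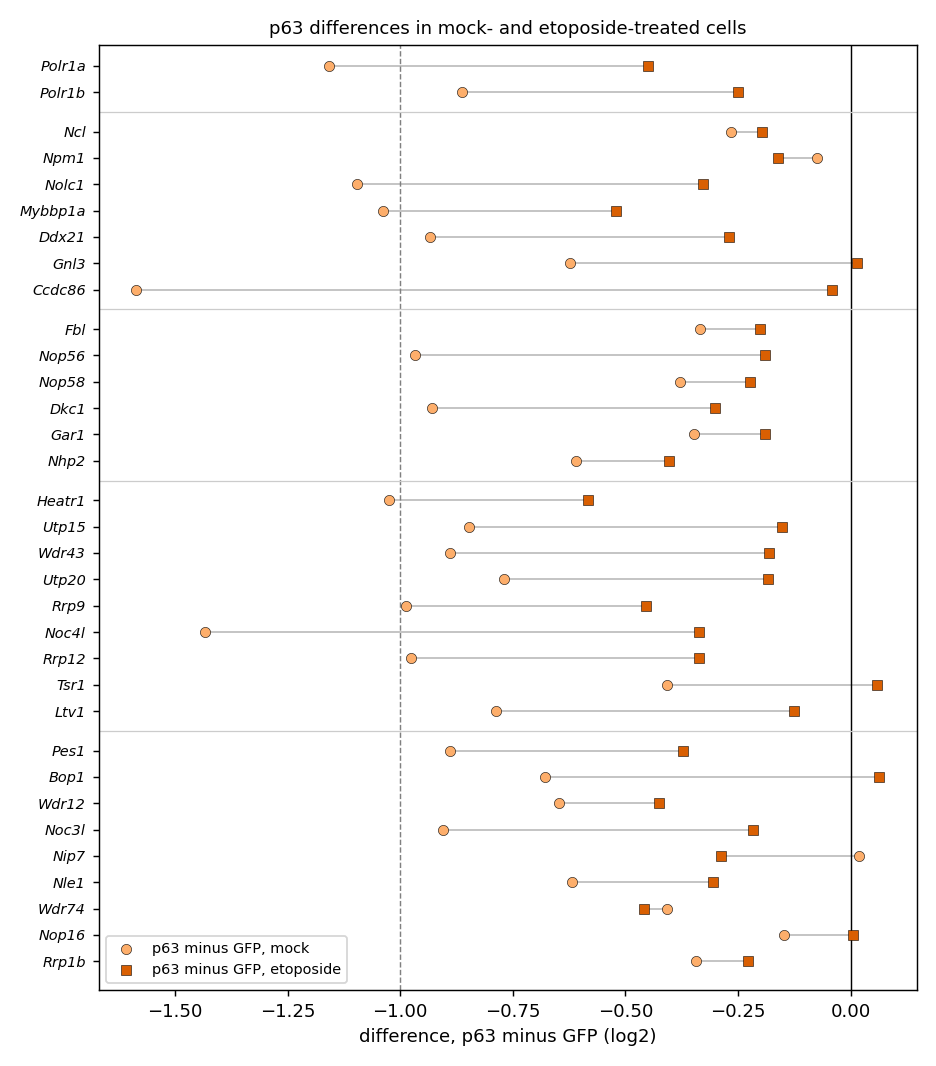
Difference p63 minus GFP (log2, x axis) for each member in mock-treated cells (circles) and in etoposide-treated cells (squares), 1 array per group, with rows grouped by role as in the plot of signals. The solid line is at 0 and the dashed line at -1; 6 members lie beyond -1 in mock-treated cells and 0 in etoposide-treated cells.

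In etoposide-treated cells the p63 difference of the set was smaller and had the same sign. The members' median was -0.23, and -0.31, -0.26 and -0.27 with centring, cyclic loess and quantile normalization. As deposited, 29 of 33 members (87.9%) lay below 0, against 45.5% of all genes kept. By the threshold of 1, 0 members were lower and 0 higher, where 0.514% and 1.38% of all genes kept were so called. The median of all genes kept was 0.02, and 27 members fell under the lower quartile of all genes, -0.14. The difference was smaller in size than in mock-treated cells for 30 of 33 members (90.9%), against 68.1% of all genes kept, and the exceptions were Npm1, Nip7 and Wdr74. This count depends on scaling: with centring it was 22 of 33 (66.7%), against 68.0% of all genes. With cyclic loess and quantile normalization it was 24 (72.7%) and 25 (75.8%), against 67.6% and 67.3% of all genes. After Heatr1, the lowest were Mybbp1a at -0.52, Wdr74 at -0.46 and Rrp9 and Polr1a at -0.45. Gnl3, Tsr1, Bop1 and Nop16 lay at 0.01 to 0.06, and these 4 turned negative with centring. At a looser threshold of 1.5-fold, still 0 members were lower and 0 higher, against 1.87% and 4.91% of all genes kept, and Heatr1 fell just short of it. At that threshold 23 members were lower and 0 higher in mock-treated cells, against 16.1% and 6.74% of all genes.

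The median etoposide difference of the members had opposite signs in the 2 lines. In p63 cells the members' median after etoposide was 0.24, with 24 of 33 above 0. Below 0 were 27.3% of members and 40.4% of all genes kept. In GFP cells the members' median was -0.21, with 29 of 33 (87.9%) below 0, against 58.8% of all genes kept. All genes kept leaned the same way, with medians of 0.10 in p63 cells and -0.08 in GFP cells, so the members lay 0.14 above and 0.13 below the bulk. With arrays centred, the members' medians were 0.04 and -0.11, and 7 of 33 members changed sign in p63 cells. In p63 cells 1 member, Ccdc86, was called higher (3.03%, where 6.28% of all genes kept were) and 0 lower (1.33% of all genes). In GFP cells 0 were higher and 0 lower, against 3.52% and 2.12% of all genes. With 33 members, 1 call is 3.03% of the set, so counts this low do not set the members apart from all genes. At 1.5-fold, 4 members were higher and 0 lower after etoposide in p63 cells (16.5% and 5.5% of all genes), and 0 were higher and 3 lower in GFP cells (9.28% and 9.48%).

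**Figure D3:**
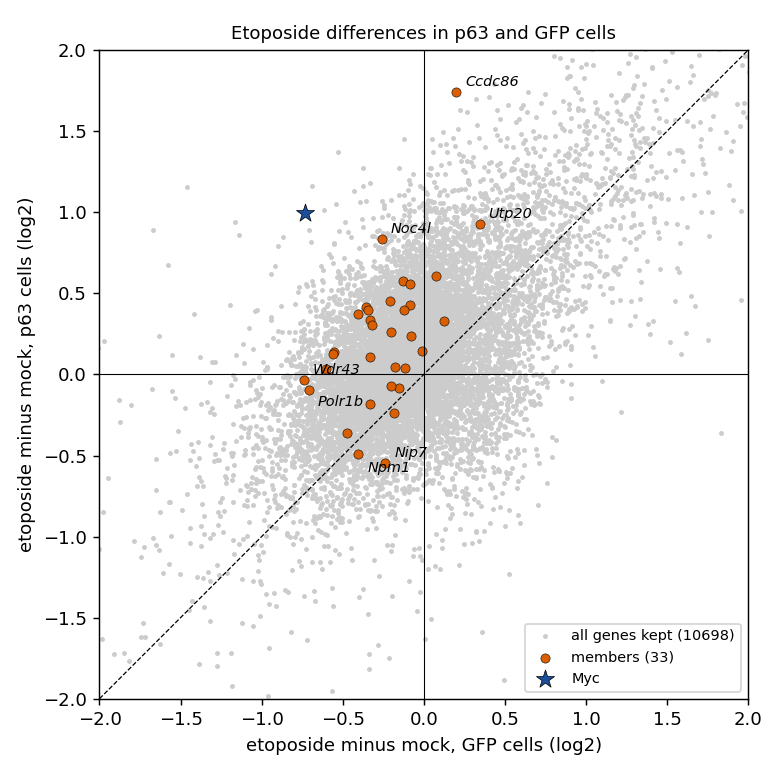
Etoposide minus mock (log2) in p63 cells (y axis) against the same in GFP cells (x axis) for the 33 members, for Myc (star) and for all 10698 genes kept (grey, of which 111 lie outside the plotted range), 1 array per group. The dashed line marks equal differences. Above it lie 30 of 33 members, Myc and, counting those outside the range, 7409 of the 10698 genes kept.

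The order of the 4 readings recurred across members. For 16 of 33 (48.5%), mock-treated GFP cells were highest, followed by etoposide-treated GFP cells, etoposide-treated p63 cells and mock-treated p63 cells, an order found in 1194 of all genes kept (11.2%). With centring it held for 10 members (30.3%), against 6.07% of all genes. The 16 included Polr1a, Nolc1, Mybbp1a, Ddx21, Nop56, Dkc1, Heatr1, Noc4l, Rrp12 and Pes1. Without replicates, neighbours in this order cannot be separated from array error, and for some, such as Gar1 in GFP cells (9.90 with etoposide and 9.91 with mock), they hardly differ. Higher readings after etoposide in p63 cells together with lower ones in GFP cells were found for 20 members (60.6%), against 27.7% of all genes kept. With centring, cyclic loess and quantile normalization 10, 13 and 14 members had this pattern, against 11.3%, 18.2% and 18.01% of all genes. In both lines 9 members (27.3%, against 31.1% of all genes kept) were lower after etoposide, among them Polr1b (-0.10 in p63 cells and -0.71 in GFP cells), Npm1 (-0.49 in p63 cells and -0.40 in GFP cells) and Rrp1b (-0.36 in p63 cells and -0.48 in GFP cells). The 4 higher in both (12.1%, against 31.8% of all genes) were Ccdc86 (1.74 in p63 cells and 0.20 in GFP cells), Utp20 (0.93 in p63 cells and 0.34 in GFP cells), Rrp9 (0.61 in p63 cells and 0.07 in GFP cells) and Nhp2 (0.33 in p63 cells and 0.12 in GFP cells).

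Subtracting the etoposide difference of GFP cells from that of p63 cells gave a median of 0.53 over the members, against 0.20 over all genes kept. The value was above 0 for 30 of 33 members and below 0 for 9.09% of them, against 30.7% of all genes kept. Ccdc86, at 1.55, and Noc4l, at 1.10, reached 1 (6.06% of members, where 2.84% of all genes kept did), and 0 members reached -1, against 1.09% of all genes. At 1.5-fold, 16 members were positive and 0 negative, against 16.7% and 4.94% of all genes. Nop56 (0.78), Nolc1 (0.77), Bop1 (0.74), Wdr43 (0.71) and Polr1a (0.71) followed, while Nip7 (-0.31), Npm1 (-0.09) and Wdr74 (-0.05) lay below 0. Under centring the split of calls over all genes turned from 304 higher and 117 lower to 84 higher and 341 lower. The members' median was then 0.24, against -0.10 for all genes, and Ccdc86 alone reached 1. This value, the p63 difference in mock-treated cells and the etoposide difference in p63 cells all use the same array, that of p63 cells after mock treatment. Those without that array are p63 against GFP after etoposide (-0.23) and etoposide against mock in GFP cells (-0.21), which share the array of etoposide-treated GFP cells.

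Myc, the transcription factor known to drive these genes, had the same order of readings as the 16 members above. That order was found in 11.2% of all genes kept, and a part of Myc in the members' differences was not tested. Myc read 10.03 and 9.03 in etoposide- and mock-treated p63 cells, against 10.09 and 10.83 in etoposide- and mock-treated GFP cells. Its p63 difference was -1.79 in mock-treated cells, 3.47-fold lower, and -0.06 after etoposide, and its etoposide difference was 0.997 in p63 cells and -0.73 in GFP cells. The rest of its network was mixed. Mxd4, a repressor that pairs with MAX, had p63 differences of 0.78 with mock treatment and 0.31 with etoposide, and Max, the partner MYC needs to bind DNA, of -0.07 and -0.03. Over the 11 network genes kept the median in mock-treated cells was -0.08, and 0.14 with centring. Mycn read below the filter on all arrays.

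Other lists of the pathway also had negative p63 medians in mock-treated cells, where 63.9% of all genes kept lay below 0 and 3.76% were called lower. Among 14 further genes of the RNA polymerase I machinery, 14 lay below 0 with a median of -0.60, and 2 were called lower: Taf1a, a subunit of the promoter selectivity factor, at -1.18, and Twistnb, a polymerase I subunit, at -1.05. Tcof1 (treacle), a nucleolar factor that recruits UBF, was at -0.97, the initiation factor Rrn3 at -0.55 and Ubtf, which encodes UBF, at -0.33. Of 99 other ribosome biogenesis factors, 97 lay below 0 with a median of -0.52, 9 were called lower and 0 higher. Of 25 other MYC targets 23 lay below 0, with a median of -0.43, 2 called lower and 0 higher. The 55 genes of cytosolic ribosomal proteins, many of which have retrocopies, had a median of -0.32, with 1 called lower and 1 higher. The 5 host genes of snoRNAs had a median of -0.22 with none called. The median of all genes kept was -0.14.

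**Figure D4:**
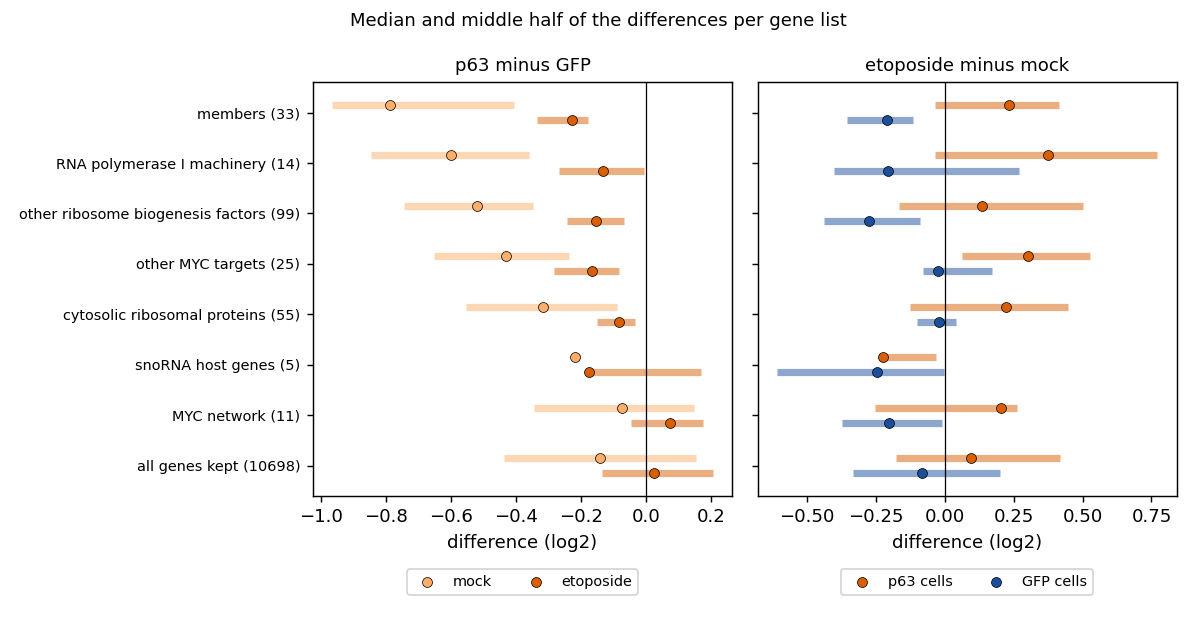
Median (points) and quartiles (bars) of the log2 differences for the members, 6 related gene lists and all genes kept (number of genes in parentheses), for p63 minus GFP in mock- and etoposide-treated cells (left) and etoposide minus mock in p63 and GFP cells (right), 1 array per group. In mock-treated cells the members' median of -0.79 stands below the -0.60 of RNA polymerase I genes, the -0.52 of other biogenesis factors and the -0.14 of all genes.

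As deposited, the p63 medians of most of these lists were smaller in size after etoposide. This depends on scaling, since centring raised every p63 difference in mock-treated cells and lowered every one in etoposide-treated cells. The members' medians moved in this way from -0.79 to -0.58 and from -0.23 to -0.31. The deposited medians after etoposide were -0.13 for the polymerase I genes, -0.15 for other biogenesis factors, -0.17 for other MYC targets and -0.08 for ribosomal proteins. That of snoRNA host genes was little changed at -0.18, and that of all genes kept was 0.02. Of these lists 0 genes were called in either direction, where 0.514% of all genes kept were lower and 1.38% higher. Shares this small give few calls in lists of this size. In p63 cells the polymerase I genes had an etoposide median of 0.38 and other biogenesis factors of 0.13, the second of which turned to -0.06 with centring. In GFP cells the medians of both were -0.20 and -0.27. By the mean of both lines, the lowest of the biogenesis factors was Rrs1, which is needed for the large subunit, at -0.99 in p63 cells and -0.97 in GFP cells, and the highest was Pwp2, of the small subunit processome, at 1.12 in p63 cells and 0.91 in GFP cells. Cad, the enzyme that starts pyrimidine synthesis, was the highest of the other MYC targets, at 1.13 in p63 cells and 0.71 in GFP cells, and Odc1, ornithine decarboxylase, stood at 0.94 in p63 cells and 0.36 in GFP cells. Snhg5, a snoRNA host gene, was at -0.98 in p63 cells and -0.61 in GFP cells.

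Sequence and length were set beside the members' differences. Neither was used directly in choosing the members, but the motif is not independent of a list of genes driven by MYC. The 8 members with an E-box in their window had a median p63 difference in mock-treated cells of -0.84, and the 21 with a window that lacks it of -0.85. Of the 6 called members, 2 (Ccdc86 and Mybbp1a) have the motif and 4 have a window without it. Over all genes kept the medians were -0.18 with the motif (1042 genes) and -0.14 without it (7571 genes). The members' median gene length in RefSeq was 13923 bases, against 22750 for the genes kept, and 11 of the 33 were longer than that. Across the 33 members the p63 difference in mock-treated cells had a Pearson correlation of -0.21 with log2 gene length. With mean signal it was 0.19. Over all 10698 genes kept the correlation with mean signal had the opposite sign, at -0.10. That with log2 gene length was -0.00856, over 10679 genes. These correlations are across genes that share 2 arrays, and genes are not independent replicates. They are given as descriptions only, those of the members with 33 points.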

How the data were processed

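RNA was amplified with a NuGEN kit and measured on Affymetrix whole-transcript mouse gene arrays, 1 for each of 4 groups, per the labels. Per the submitters' processing notes, the authors made the deposited log2 values with RMA in Affymetrix Expression Console, with no version stated. RMA usually includes quantile normalization, which removes shifts shared by most genes. The deposited arrays still differed in spread, with SDs of 2.28 to 2.39 over all probe sets. Running quantile normalization on them moved the members' p63 median in mock-treated cells from -0.79 to -0.63. That base 2 applies was judged from the values, 1.27 to 14.4. Of 35512 probe sets, 21789 had 1 gene symbol in a 2016 platform annotation, 1621 several and 12102 were not listed. Its genome build is not stated. All 33 members matched RefSeq (GRCm38.p6) by Entrez identifier.

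Genes were kept where the highest value reached the 50th percentile (5.87). Differences were subtractions of log2 values, called at a size of at least 1. The steps were tested on simulated data. Arrays give no counts, so their number limits the precision. Alternatives were no filter, a stricter filter (75th percentile, 7.82), calls at 1.5-fold and the median over probe sets of the same gene. Others were centring of each array on its median over the genes kept, cyclic loess (limma 3.58.1, R 4.3.3) and raising dim readings to the filter. Quantile normalization was added after seeing the data. Members and lists were chosen with earlier results of these data known. All members are named. Other genes could be named if they were in the polymerase I or MYC network lists or, in longer lists, among the 3 highest or 3 lowest by mean etoposide difference, and only some of these are given. Promoter sequences are from RefSeq (GRCm38.p6).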

Additional observations from a re-analysis of the deposited data

Results flagged for a closer look

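The etoposide difference in p63 cells and that in GFP cells had opposite signs for 20 members, and with 1 array per group the difference between them was not tested. Subtracting the etoposide difference of GFP cells from that of p63 cells gave a median of 0.53 over the members. Among RNA polymerase I and nucleolar genes it was 0.71 for Polr1a, 0.77 for Nolc1, 0.52 for Mybbp1a, 0.66 for Ddx21 and 0.64 for Gnl3. Among snoRNP proteins it was 0.78 for Nop56, 0.63 for Dkc1 and 0.16 for Gar1. Small subunit factors stood at 0.44 for Heatr1, 0.70 for Utp15, 1.10 for Noc4l, 0.64 for Rrp12, 0.47 for Tsr1 and 0.66 for Ltv1. Large subunit factors stood at 0.52 for Pes1, 0.74 for Bop1, 0.22 for Wdr12, 0.69 for Noc3l, 0.31 for Nle1 and 0.15 for Nop16. For Nip7, at -0.31, the p63 difference changed sign between mock and etoposide. Myc, at 1.73, had a wider gap between the lines than any of the 33 members. With centring the etoposide difference was positive in p63 cells and negative in GFP cells for 10 members, not 20. Under centring 8 of the 33 members changed the sign of this value.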

How the results depend on the processing

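The members' medians kept their sign in all 4 comparisons and in the difference of etoposide differences under the 8 alternatives run. No filter, the stricter filter, the median of probe sets and raised dim readings left every member count as it was. With a 1.5-fold threshold, 23 members (69.7%) were lower with p63 in mock-treated cells, against 16.1% of all genes. After etoposide 4 (12.1%) were higher in p63 cells and 3 (9.09%) lower in GFP cells, against 16.5% and 9.48% of all genes. By that threshold 16 members (48.5%) had a positive difference of etoposide differences, against 16.7% of all genes. With centring, cyclic loess and quantile normalization, 2 members were lower with p63 in mock-treated cells in each, against 1.89%, 2.56% and 2.77% of all genes. The members' medians were -0.58, -0.59 and -0.63. The difference of etoposide differences then had medians of 0.24, 0.34 and 0.39, with 1 member (3.03%) past 1 in each, against 0.785%, 1.75% and 1.77% of all genes. The etoposide median in p63 cells was 0.0386 with centring and 0.13 with quantile normalization, and in GFP cells -0.11 with cyclic loess. Other lists were less stable in sign. With centring, the etoposide median in p63 cells of other biogenesis factors was -0.0624, the etoposide medians in GFP cells of ribosomal proteins and other MYC targets were 0.0770 and 0.0744, and the p63 medians of the MYC network were 0.14 in mock- and -0.00947 in etoposide-treated cells. Centring also gave differences of etoposide differences of -0.10 for ribosomal proteins, -0.25 for the MYC network, -0.0435 for other MYC targets and -0.27 for snoRNA host genes. Cyclic loess gave 0.0536 and 0.0755 for ribosomal proteins and other MYC targets after etoposide in GFP cells, 0.0598 for the MYC network with p63 in mock-treated cells and -0.13 for the snoRNA host genes' difference of differences. Quantile normalization gave 0.0491 and 0.0536 for those 2 lists in GFP cells, 0.0530 for the MYC network with p63 in mock-treated cells, and differences of differences of -0.0173 for that network and -0.12 for snoRNA host genes. After etoposide, the p63 median of the MYC network was -0.0303 with the stricter filter, and that of snoRNA host genes 0.17 with the median of probe sets. The cause of these changes of sign was not tested. No paired analysis was possible because each group holds 1 array.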
